A study of Homo sapiens with 5 samples.

Results

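The genes described here encode the nuclear pore and the soluble proteins that carry cargo through it. They were taken by gene symbol, by a rule that uses no measured value. The rule covered NUP genes with a number, the importins and transportins (KPNA, KPNB, IPO, TNPO), the exportins (XPO), and RANBP2, TPR, RAE1, SEH1L, AAAS and RAN. It gave 47 genes with 105 probe sets, out of 11963 genes that had a probe set with a single gene symbol. For the 28 genes with several probe sets, the brightest on average was used. Of the 47 genes, 44 had log2 signals above a floor of 4.45 on all 5 arrays, and 3 (NUP160, KPNA5 and NUP62CL) were below it on every array and were not compared. Their log2 signals lay between 4.33 and 4.43 for NUP160, 2.57 and 2.73 for KPNA5, and 3.24 and 3.73 for NUP62CL. The floor is the 40th percentile of all signals, and lower values were set to it. The median of the mean log2 signals was 7.36 over the 47 genes and 5.42 over all 11963. The shares and medians of all genes given below are not matched for signal, and the part of signal level was not tested.

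The nuclear pore is a ring of scaffold complexes set in the nuclear envelope, with a central channel lined by proteins rich in phenylalanine-glycine (FG) repeats. Importins and exportins bind cargo and pass through this channel, and the GTP-bound form of RAN, kept high in the nucleus, releases import cargo and loads export cargo. In erythroid cells the nucleus condenses and is finally expelled, and XPO7 is an exportin known for its part in that maturation.

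The samples were cells of TF-1, a human erythroleukaemia cell line kept in GM-CSF, transduced with the retroviral vector MSCV-GFP (vector cells) or with the same vector carrying DbSCL, a form of the transcription factor SCL (encoded by TAL1) that cannot bind DNA. All were starved of growth factor overnight before a stimulation of 6 h. Vector cells received GM-CSF at 5 ng/mL, Steel factor (SF, the c-Kit ligand) at 20 ng/mL, or erythropoietin (Epo) at a dose that the labels do not give, and DbSCL cells received SF or Epo. With 1 array in each of the 5 groups, no difference has a replicate check and no p-value was computed. No group was left without cytokine, and the labels do not say whether the transduced cells were clones or pools.

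Differences are given on the log2 scale, where 1 is 2-fold and 0.58 is 1.5-fold. Their spread, estimated without replicates from the 4 SF and Epo arrays, was 0.13 to 0.24 for a single difference at the signal levels of these genes, and it contains any real interaction. The GM-CSF array did not enter this spread. Genes with the same value on several arrays were kept in it, and their effect on it was not tested. Of 12 listed TF-1 markers 9 had a probe set with a single gene symbol, among them GATA1, KIT, EPOR and CD34. All 9 were above the floor on every array. The floor does not mark absence, since CD3D and COL1A1, markers of T cells and fibroblasts, were above it too, while albumin was below it on every array. TAL1 was not higher on the DbSCL arrays (log2 signals of 8.29 under SF and 8.31 under Epo) than on the vector arrays of the same cytokine (8.31 and 8.59), and the vector GM-CSF array was lower (7.57). Which part of the gene its probe set reads was not determined, so it does not check the labels. Technical signals differed between arrays as well. The 28S ribosomal RNA signal ran from 7.82 on the vector GM-CSF array down to 5.80 on the vector Epo array, and the hybridization controls from 10.57 on the DbSCL SF array down to 9.58 on the vector Epo array. For beta-actin, the excess of 3' over 5' signal, a measure of RNA integrity and labelling, ran from 1.89 on the vector SF array to 3.33 on the DbSCL SF array. Their part in the differences below was not tested.

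Most of these genes had their lowest signal under GM-CSF. Among the 44 above the floor, the vector GM-CSF array alone was lowest for 27 (61.4%), against 30.9% of all 7918 genes that cleared the floor on every array. The vector Epo array alone was highest for 25 (56.8%), against 26.9% of all. The order GM-CSF below SF below Epo was seen in 24 of the 44 (54.5%), against 28.7% of all genes. For 0 of the 44 was the GM-CSF array alone the highest, against 26.3% of all genes.

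**Figure D1:**
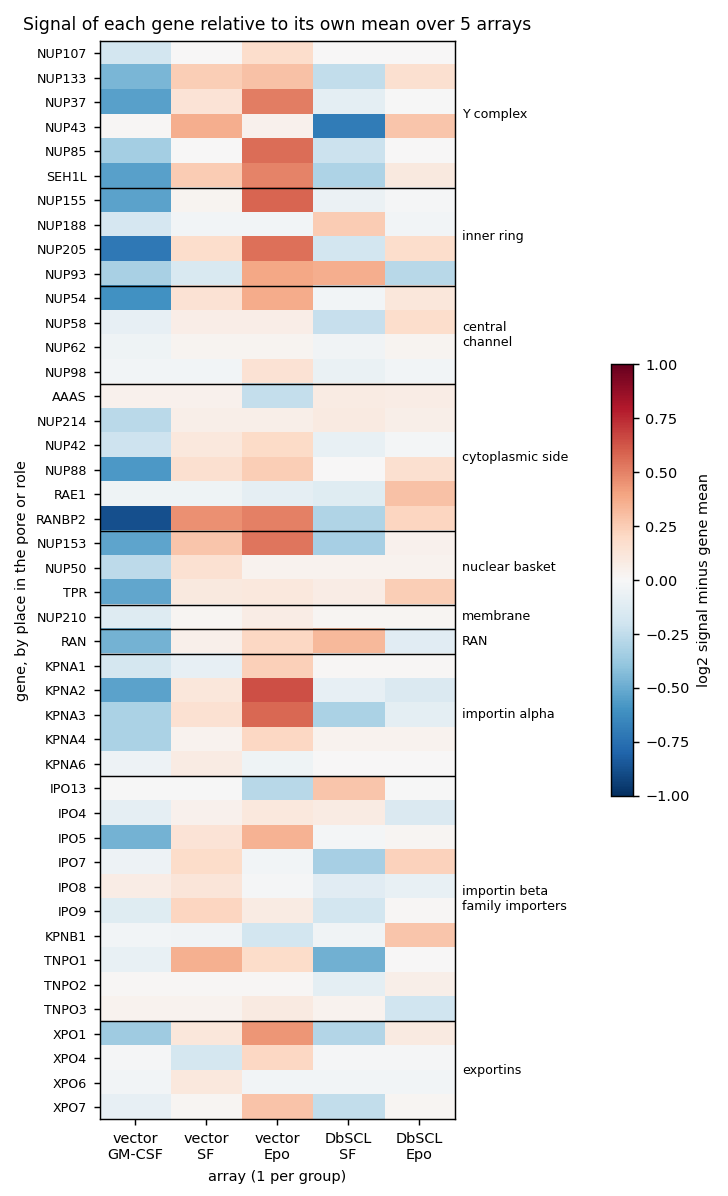
Log2 signal of each of the 44 genes minus its own mean over the 5 arrays (colour), with genes in rows grouped by place in the pore or role and 1 array per column. The GM-CSF column is mostly blue, being the lowest array for 27 genes, and the vector Epo column mostly red, being the highest for 25.

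The first comparison set SF and Epo against GM-CSF in vector cells. RANBP2, the large filament protein on the cytoplasmic face of the pore and a SUMO ligase, showed the largest differences of these genes. Its log2 signal in vector cells was 5.70 with GM-CSF, 7.03 with SF and 7.08 with Epo, and 6.28 and 6.79 in DbSCL cells under SF and Epo. It was thus 1.34 (2.52-fold) higher under SF and 1.38 (2.60-fold) higher under Epo than under GM-CSF. The other 2 RANBP2 probe sets gave only 0.32 and 0.42 for SF and 0.28 and 0.24 for Epo, and the mean of its probe sets was short of 2-fold in both. RANBP2 also has near-identical gene copies, the RGPD family, whose transcripts its probe sets might read.

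Under Epo, 7 of the 44 genes were 2-fold or more higher than under GM-CSF (3.46% of all 8581 genes compared) and 0 were lower (0.117% of all). At 1.5-fold 17 were higher (13.2% of all) and 0 lower (2.45% of all). The median difference of the 44 was 0.34, beside 0.00 over all genes, and 37 (84.1%) lay above 0, against 45.3% of all. Under SF, 1 gene was 2-fold or more higher (0.573% of all 8553) and 11 were 1.5-fold or more higher (6.9% of all), with 0 lower at either size (0.0234% and 1.29% of all). The median was 0.32, beside 0.00 over all genes, and 36 of 44 (81.8%) lay above 0, against 46.2% of all. Both comparisons use the same GM-CSF array, so they are not independent of each other. Relative to GM-CSF, the 28S signal differed by −1.28 under SF and −2.02 under Epo, and the hybridization controls by −0.51 and −0.95, and their part in the result was not tested. With quantile or cyclic loess normalization between arrays, 3 genes in place of 7 were 2-fold higher under Epo in each case, of which RANBP2 and NUP205 were among the 7 and NUP54 was not. The medians were then 0.18 and 0.23 for Epo and 0.13 and 0.17 for SF, all above those of all genes, which lay between −0.05 and 0.01.

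Pore components and transport receptors were counted separately. Of the 24 pore components, 12 (50%) were 1.5-fold higher under Epo, against 13.2% of all genes, and 9 (37.5%) under SF, against 6.9% of all, with medians of 0.51 and 0.35. Of the 19 importins, transportins and exportins, 4 (21.1%) were 1.5-fold higher under Epo and 2 (10.5%) under SF, closer to those shares of all genes, with medians of 0.20 and 0.13. Whether these groups differ was not tested, and the counts rest on the brightest probe sets. Under Epo, other probe sets of the uncounted carriers KPNB1, IPO7, TNPO1, TNPO3 and KPNA1 passed 1.5-fold higher. Among pore components this held for NUP50, while other probe sets of the counted RANBP2, NUP88 and TPR fell short. Of the counted carriers, IPO5 had a probe set that fell short, at 0.02, and another that passed, at 1.30.

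**Figure D2:**
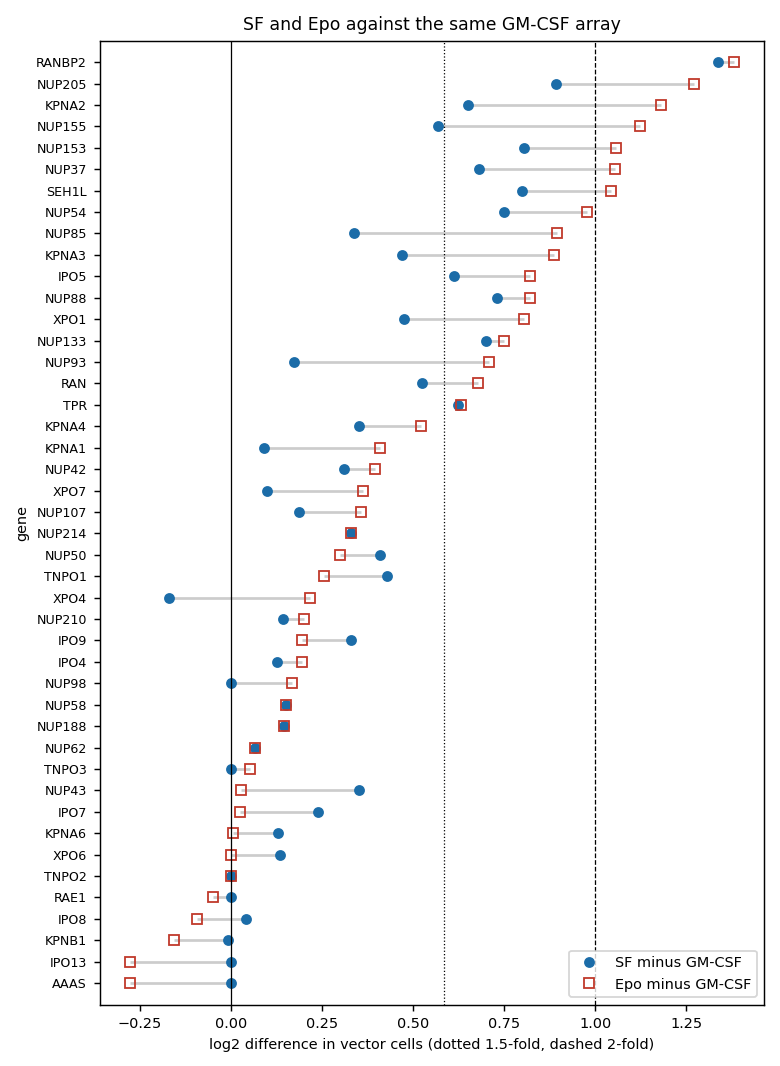
Log2 difference of SF (filled circles) and Epo (open squares) against the same GM-CSF array in vector cells for the 44 genes, sorted by the Epo value, 1 array per group. RANBP2 is at the top with 1.34 and 1.38, 7 squares and 1 circle lie at or beyond the 2-fold line, and no symbol reaches 1.5-fold below 0.

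The scaffold was described first by its Y complex, the outer ring that coats the pore membrane. Of its 6 compared members 6 were above 0 in both comparisons, 4 at 1.5-fold under Epo and 3 under SF. NUP37 had log2 signals of 6.48, 7.16 and 7.54 under GM-CSF, SF and Epo in vector cells and 6.93 and 7.02 in DbSCL cells under SF and Epo. SEH1L, which also serves in a nutrient-sensing complex at the lysosome, had 8.06, 8.86, 9.10, 8.29 and 8.70 in the same order. In both genes GM-CSF was the lowest array and vector Epo the highest, with Epo differences of 1.05 for NUP37 and 1.04 for SEH1L, each close to the 2-fold limit. NUP85 (0.89) and NUP133 (0.75) followed under Epo. NUP43 had the smallest Epo difference of the complex, 0.03, which turned to −0.29 with quantile and −0.20 with loess normalization.

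In the inner ring, which anchors the central channel, NUP205 had log2 signals of 6.46, 7.35 and 7.72 under GM-CSF, SF and Epo in vector cells, and 6.99 and 7.35 in DbSCL cells under SF and Epo. The Epo difference was 1.27 (2.41-fold) and the SF difference 0.89, while the mean of its probe sets, of which the other was below the floor on every array, gave 0.81 and 0.53. NUP155 had 7.21, 7.78, 8.34, 7.69 and 7.74 in the same order, a difference of 1.12 under Epo and 0.57 under SF. Vector Epo was the highest array for both genes and GM-CSF the lowest. NUP93, which links the ring to the channel, was 0.71 higher under Epo and 0.17 under SF, and NUP188, a relative of NUP205, was 0.14 higher in each.

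Values for the channel and its faces were mixed. Of the channel proteins, NUP54 had log2 signals of 4.76 (GM-CSF), 5.51 (SF) and 5.74 (Epo) in vector cells, and 5.34 and 5.48 in DbSCL cells. It was 0.98 higher under Epo, just short of 2-fold, from weak signals. Its partners NUP58 and NUP62 gave 0.15 and 0.07 under Epo, and NUP98, which also occurs in leukaemia fusions, gave 0.17. On the cytoplasmic side, the brightest NUP88 probe set was 0.82 higher under Epo, while the other differed by −0.06. RAE1, an mRNA export factor, and AAAS, the gene of triple A syndrome, were at −0.05 and −0.28 under Epo, but the other RAE1 probe set was at 0.52 under both Epo and SF. In the nuclear basket, NUP153 had 8.51, 9.31 and 9.57 under GM-CSF, SF and Epo in vector cells and 8.70 and 9.08 in DbSCL cells under SF and Epo. Its difference was 0.80 under SF and 1.06 under Epo, with 1 probe set. TPR, the filament of the basket, was at 0.62 and 0.63, but a second probe set gave 0.08 and −0.13. The membrane protein gene NUP210 varied little in its brightest probe set, with signals of 6.54, 6.68, 6.74, 6.68 and 6.68 on the 5 arrays in the same order. Its 3 other probe sets above the floor ran from −0.36 to 0.21 under SF and from −0.38 to 0.40 under Epo.

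Among the carriers, the importin alpha genes, whose products bind the classical nuclear localization signal, were above 0 in 5 of 5 compared in each comparison. KPNA2 had log2 signals of 9.16, 9.81 and 10.34 under GM-CSF, SF and Epo in vector cells and 9.61 and 9.55 in DbSCL cells under SF and Epo. It was 1.18 (2.27-fold) higher under Epo and 0.65 under SF, and its second probe set gave 0.87 and 0.72. KPNA3 was 0.89 higher under Epo with 1.22 in its second probe set. Vector Epo was the highest array in every probe set of these 2 genes. KPNA6 was at 0.01. RAN itself had 9.27, 9.80, 9.95, 10.07 and 9.63 in the same order of arrays, 0.53 higher under SF and 0.68 under Epo, and its second probe set gave 0.53 and 0.59. DbSCL SF was the highest array for RAN in the brightest probe set and the lowest in the second.

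The 10 importers of the importin beta family had medians of 0.08 under SF and 0.04 under Epo. KPNB1, the importin that pairs with importin alpha, was at −0.01 under SF and −0.15 under Epo, and 3 of the 10 were below 0 under Epo. IPO5, a carrier of ribosomal proteins and histones, was the 1 member of the 10 at 1.5-fold by the brightest probe sets. It was at 0.61 under SF and 0.82 under Epo. Another IPO5 probe set gave 0.02 in both. A weaker probe set of this gene, below the floor under GM-CSF, gave 1.02 and 1.30. TNPO1, the transportin of many RNA-binding proteins, had log2 signals of 10.90, 11.33 and 11.15 under GM-CSF, SF and Epo in vector cells and 10.49 and 10.97 in DbSCL cells under SF and Epo, and its lowest array was thus DbSCL SF. It was 0.43 higher under SF and 0.26 higher under Epo, the latter turning to −0.04 with loess normalization. The 4 other TNPO1 probe sets were at 0.05 to 0.51 under SF and 0.36 to 0.98 under Epo. In some of them GM-CSF, not DbSCL SF, was the lowest array. Of the exportins, XPO1, the main carrier of proteins with leucine-rich export signals, had 8.32, 8.80, 9.13, 8.39 and 8.78 in the same order. Its difference was 0.48 under SF and 0.80 under Epo. XPO7 was at 0.10 and 0.36, with −0.26 and −0.11 in its other probe set, and XPO6 was at 0.14 and 0.00. The genes not described singly (NUP107, NUP42, NUP214, NUP50, KPNA1, KPNA4, IPO4, IPO8, IPO9, IPO13, TNPO2, TNPO3 and XPO4) were under 1.5-fold in both comparisons by their brightest probe sets, from −0.28 in IPO13 to 0.52 in KPNA4 under Epo. Other probe sets passed 1.5-fold under Epo for NUP50 (1.09, and 0.62 under SF), KPNA1 (0.60 to 0.71 in 3), TNPO2 (−0.70) and TNPO3 (0.89 in one and −0.71 in another).

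The probe sets of a gene often differed, and the choice of the brightest did not always give the larger value. Of the 24 genes with another probe set above the floor, 17 had 1 that differed more in size under Epo than the brightest did. KPNB1 was at −0.15 in its brightest, while 5 others ran from −0.10 to 1.22. IPO7 was at 0.03, and 3 others ran from 0.52 to 1.12. NUP188 and NUP214, by contrast, were at 0.14 and 0.33 in the brightest and below 0 in the others. For 9 of the 24 genes all probe sets lay above 0 under Epo, and for 0 did all lie below.

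**Figure D3:**
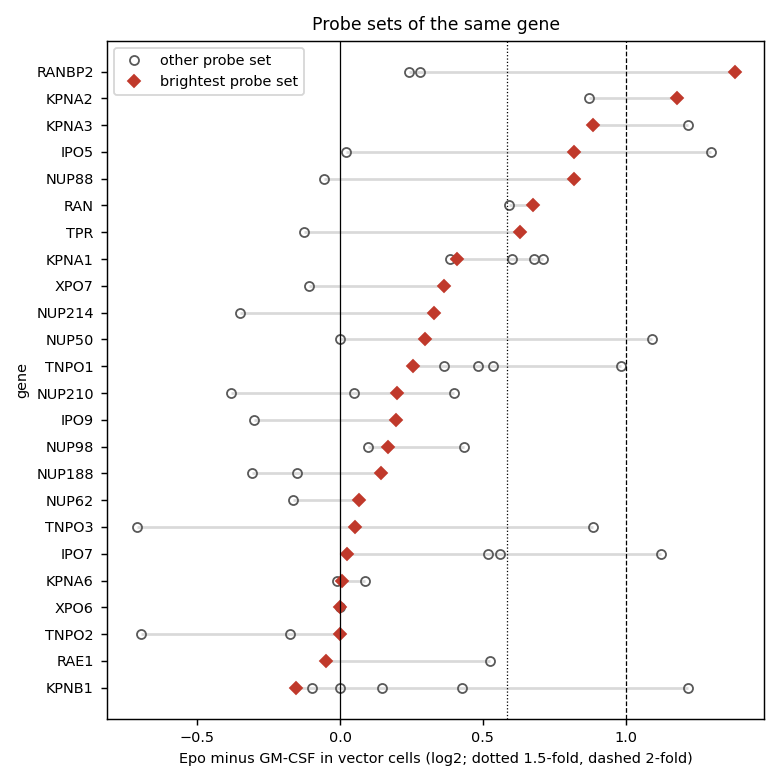
Log2 difference of Epo against GM-CSF in vector cells in every probe set above the floor, for the 24 genes with more than 1, diamonds being the brightest probe set and circles the others. RANBP2 is at 1.38 in its brightest and at 0.28 and 0.24 in the others, whereas KPNB1 spans −0.15 to 1.22.

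Promoter sequence was examined because several of these genes were high together under Epo. The 250 bases before the start site (RefSeq, GRCh38.p14) were found for 42 of the 47 genes and for 9563 genes on the array. Shown are KPNA2 (chr17:68035485-68035734, plus strand), NUP205 (chr7:135557667-135557916, plus strand) and NUP37 (chr12:102120115-102120364, minus strand), which hold both CCAAT and TTTGAA, and RANBP2 (chr2:108719232-108719481, plus strand), which had the largest difference and holds none of the marked motifs. Sequences run 5′ to 3′ along the gene and capitals mark CCAAT (the NF-Y box), CCGGAAG (an ETS core) and TTTGAA (the CHR element) on either strand.
KPNA2: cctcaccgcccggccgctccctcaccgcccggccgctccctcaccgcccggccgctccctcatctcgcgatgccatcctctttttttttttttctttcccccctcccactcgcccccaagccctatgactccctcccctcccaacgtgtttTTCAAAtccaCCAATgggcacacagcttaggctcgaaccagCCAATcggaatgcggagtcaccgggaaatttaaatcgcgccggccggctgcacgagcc
NUP205: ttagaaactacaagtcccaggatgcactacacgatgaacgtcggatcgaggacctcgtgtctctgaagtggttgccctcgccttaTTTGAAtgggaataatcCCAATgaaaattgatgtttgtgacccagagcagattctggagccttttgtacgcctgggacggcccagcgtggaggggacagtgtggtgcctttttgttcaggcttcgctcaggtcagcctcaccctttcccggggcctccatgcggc
NUP37: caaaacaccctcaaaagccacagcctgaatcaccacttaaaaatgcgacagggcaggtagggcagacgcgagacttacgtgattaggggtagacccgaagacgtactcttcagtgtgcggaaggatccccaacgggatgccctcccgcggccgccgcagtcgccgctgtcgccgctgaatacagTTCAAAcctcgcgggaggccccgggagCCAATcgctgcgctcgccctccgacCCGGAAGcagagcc
RANBP2: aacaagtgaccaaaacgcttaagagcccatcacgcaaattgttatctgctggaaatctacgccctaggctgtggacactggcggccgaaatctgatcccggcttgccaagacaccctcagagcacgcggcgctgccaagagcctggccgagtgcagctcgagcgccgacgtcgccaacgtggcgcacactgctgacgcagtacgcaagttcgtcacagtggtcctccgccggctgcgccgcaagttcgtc

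Searched on both strands, CCAAT, the box bound by NF-Y, occurred in 17 of the 42 promoters (40.5%), against 35% of all 9563. CCGGAAG, the core of many ETS factor sites, occurred in 11 (26.2%, against 12.6% of all). TTTGAA, the CHR element found in many cell cycle promoters, occurred in 6 (14.3%, against 10% of all). The palindromic NRF1 site was in 3 (7.14%, against 1.55% of all), and GGGCGG, the GC box, in 22 (52.4%, against 59.2% of all). For the factors of this study, the STAT palindrome (TTCNNNGAA) was in 2 (4.76%, against 5.88% of all), the E-box that SCL complexes read (CANNTG) in 23 (54.8%, against 56.5% of all), and 0 held the GATA site GATAAG (4.4% of all). No marked motifs overlap in the promoters shown. Among the 7 genes chosen for being 2-fold higher under Epo, 4 held the CHR element, 3 CCAAT, 3 the GC box, 2 the ETS core, 2 the E-box, 1 the STAT palindrome, and 0 the NRF1 or GATA site. A match describes letters in this window and shows no binding.

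Differences between SF and Epo in vector cells were small, in these genes as over all genes. At 1.5-fold 0 of 44 differed in either direction, where 0.349% of all 8312 genes were higher and 1.15% lower under SF. At 2-fold the count was also 0, against 0.012% higher and 0.0241% lower of all. The differences ran from −0.56 in NUP85 to 0.33 in NUP43, with a median of −0.06 beside 0.00 over all genes. Of the 44, 27 (61.4%) lay below 0 and 12 (27.3%) above, against 48.6% and 38.2% of all genes. NUP155 (−0.55), NUP93 (−0.54) and KPNA2 (−0.53) were lower under SF by nearly as much as NUP85. These arrays do not include the GM-CSF array.

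In DbSCL cells, 1 gene was 1.5-fold higher under SF than under Epo (0.909% of all 8472) and 1 was lower (2.8% of all), and 0 reached 2-fold (0.0236% higher and 0.201% lower of all). The differences were 0.64 for NUP93 and −0.98 for NUP43, and the median was −0.06 beside 0.00 over all genes. With each array centred on its median, NUP43 passed 2-fold and IPO7 was a second gene 1.5-fold lower (3.63% of all genes then lower).

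The second question was how cells with DbSCL differ from those with the vector when given 1 cytokine. With SF, 4 of 44 genes were 1.5-fold or more lower with DbSCL (3.68% of all 8450) and 0 were higher (1.42% of all). At 2-fold, 1 was lower (0.343% of all) and 0 were higher (0.0118% of all). NUP43 of the Y complex had log2 signals of 8.15 on the vector SF array and 7.09 on the DbSCL SF array, and of 7.80, 7.83 and 8.06 under vector GM-CSF, vector Epo and DbSCL Epo. DbSCL SF was its lowest array, and the difference of −1.07 (2.09-fold) came from 1 probe set. The brightest TNPO1 probe set was at −0.84 and the others at −0.80 to 0.00. RANBP2 was at −0.76, with −0.43 and −0.62 in its other probe sets, and NUP153 was at −0.61. The median was −0.12, beside 0.00 over all genes, and 30 of 44 (68.2%) lay below 0, against 41.6% of all. The excess of 3' over 5' signal was higher on the DbSCL SF array than on vector SF by 1.44 for beta-actin and 0.95 for GAPDH, and its part in the result was not tested. With quantile or loess normalization NUP93 passed 1.5-fold in the other direction, for a split of 1 higher and 3 lower, and with quantile normalization NUP43 was at −0.97. Of all genes, 1.58% were then 1.5-fold higher and 3.10% lower with quantile, and 1.30% and 3.57% with loess.

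Under Epo, 4 of 44 genes were 1.5-fold or more lower with DbSCL (2.78% of all 8359) and 0 were higher (0.694% of all). No gene of the 44 reached 2-fold, where 0.275% of all were lower and 0.0957% higher. KPNA2 was at −0.79 (second probe set −0.35), KPNA3 at −0.67 (second −0.99), NUP93 at −0.66 and NUP155 at −0.60. By the brightest probe sets, these 4 genes are different from the 4 under SF. KPNA2 was at −0.20 under SF in its brightest probe set but at −0.96 in its second. The median was −0.17 beside 0.00 over all genes, and 29 of 44 (65.9%) lay below 0, against 46.4% of all. KPNB1 was highest on the DbSCL Epo array, at a difference of 0.46, but its other probe sets ran from −0.59 to 0.37. The 28S signal was 0.89 higher on the DbSCL Epo array than on vector Epo, and its part was not tested either. With loess normalization the split was 1 higher (KPNB1) and 2 lower (KPNA2 and KPNA3), and with quantile normalization only KPNA2 was left. Of all genes, 0.876% were then 1.5-fold higher and 2.28% lower with loess, and 1.66% lower with quantile.

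The 2 DbSCL comparisons, with SF and with Epo, used different arrays. At 2-fold 0 of 44 genes were lower under both (0.0242% of all 8272) and 0 were higher under both (0.0121% of all). At 1.5-fold, by the brightest probe sets, 0 of 44 genes were lower under both (0.556% of all) and 0 were higher under both (0.0604% of all). A weaker IPO7 probe set was 1.5-fold lower in both, at −0.66 under SF and −0.63 under Epo. The brightest IPO7 probe set was at −0.52 and 0.26. At any size 20 of 44 (45.5%) were lower under both, against 25% of all genes, and 2 (AAAS and IPO13) were higher under both, against 23.6% of all. This count at any size was chosen after its values were seen. The 20 included NUP153 (−0.61 and −0.49 under SF and Epo), KPNA3 (−0.47 and −0.67), SEH1L (−0.56 and −0.40), XPO1 (−0.41 and −0.35) and NUP205 (−0.36 and −0.38). Each vector array used here is also the SF or Epo array of the comparisons with GM-CSF, so that a high value on it enters both.

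**Figure D4:**
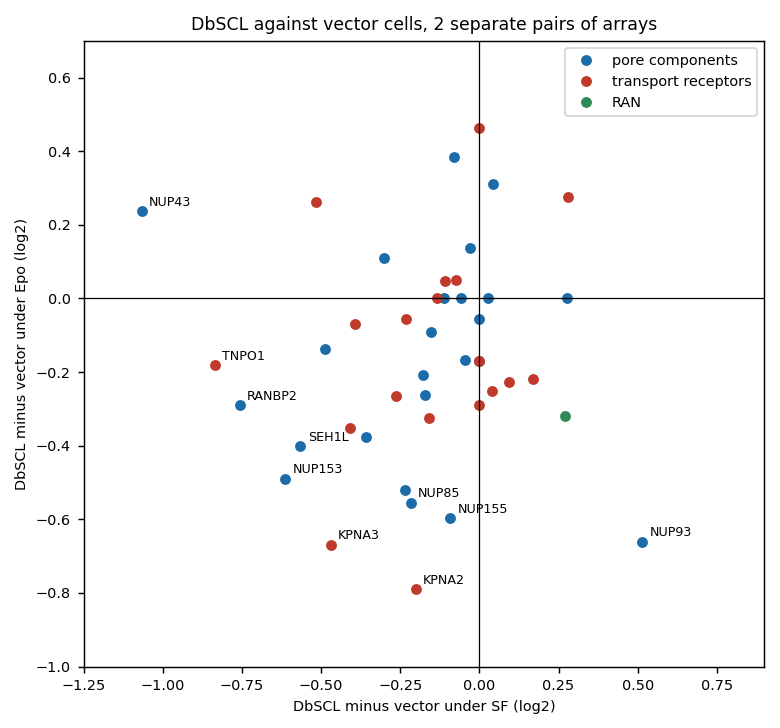
Log2 difference of DbSCL against vector cells under SF (horizontal) and under Epo (vertical) for the 44 genes, pore components in blue, transport receptors in red and RAN in green, 1 array per group. There are 20 genes in the lower left and 2 in the upper right, while NUP43 (−1.07 and 0.24) and NUP93 (0.51 and −0.66) lie in opposite corners.

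Other genes of nuclear transport, outside the symbol rule, were taken from a list of 34. Of these, 25 had a probe set with a single gene symbol. Of 22 compared under Epo against GM-CSF, 5 (22.7%) were 1.5-fold or more higher, against 13.2% of all genes, and 1 (4.55%) was lower, against 2.45% of all. Of the 5, 1 was at 2-fold (4.55% of the 22, against 3.46% of all), and the median was 0.25, beside 0.00 over all genes. Under SF 2 of 22 (9.09%) were 1.5-fold higher, near the 6.9% of all genes, and 0 were lower (1.29% of all), with a median of 0.26 beside 0.00. The gene at 2-fold was XPOT, the exportin of transfer RNA, with log2 signals of 6.55, 7.32 and 7.70 under GM-CSF, SF and Epo in vector cells and 6.50 and 7.08 in DbSCL cells under SF and Epo. Its Epo difference was 1.15, and against vector cells DbSCL cells differed by −0.81 under SF and −0.62 under Epo. The other 4 genes higher under Epo were CSE1L, which returns importin alpha to the cytoplasm, NDC1, SNUPN and PCID2, and the 1 lower was MCM3AP. These 5 are named because their values were seen. With DbSCL, 2 of 23 listed genes were 1.5-fold lower under SF (3.68% of all genes) and 1 under Epo (2.78% of all), and 0 were higher (1.42% and 0.694% of all), with medians of 0.00 in both.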

How the data were processed

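The authors deposited 1 log2 signal per probe set and array of an Affymetrix platform. That the values are log2 was read from the deposited numbers, which run from 2.08 to 13.77. The summary method, the normalization and the software are not given in the sources used here. Of 22283 probe sets, 68 were controls. Gene symbols came from the platform annotation, 19071 probe sets having 1 symbol, and all 47 gene identifiers were found in the RefSeq gene table. Values were used as deposited, the array medians lying between 4.89 and 4.98. Of the 44 genes, 22 have tied values on 2 or more arrays, as 51.1% of all genes above the floor do.

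A gene entered a comparison when above the floor on at least 1 of its 2 arrays. All 6 comparisons are differences between single arrays, counted at 2-fold and 1.5-fold. The spread is a scaled median absolute deviation of the interaction in 10 bins of signal. Scripts were tested on simulated data. Alternatives were the mean of all probe sets, quantile, cyclic loess (limma 3.58.1) and median scaling, a floor at the 50th percentile and no floor. The genes, lists and tests were chosen with earlier results of these data known. Genes given with all 5 signals were those at 2-fold in any comparison, or the largest of a role group without one. The number of arrays, 1 per group, limits the precision.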

Additional observations from a re-analysis of the deposited data

Results flagged for a closer look

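NUP43 and NUP93 had DbSCL differences of opposite sign under the 2 cytokines, at least 2-fold apart. With 1 array per group, the difference was not tested. For NUP43 the log2 difference was −1.07 under SF and 0.24 under Epo, a gap of −1.30. For NUP93 it was 0.51 under SF and −0.66 under Epo, a gap of 1.18. Each rests on 1 probe set. The excess of 3' over 5' signal of beta-actin was 1.44 higher with DbSCL than with vector under SF and 0.27 higher under Epo. Its part in these values was not tested.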

How the results depend on the processing

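No paired analysis was possible because each group has 1 array, which also leaves no replicate to omit. Averaging the probe sets of a gene, 0 were 2-fold different and 6 were 1.5-fold different between SF and GM-CSF, in place of 1 and 11. All 6 were higher, beside 4.95% of all genes higher. With quantile normalization 4 were 1.5-fold different there, with a median of 0.13 in place of 0.32, and with loess 5. All of these were higher, beside 4.56% (quantile) and 4.85% (loess) of all genes higher. Between Epo and GM-CSF, quantile normalization gave 3 genes at 2-fold and 9 at 1.5-fold, in place of 7 and 17, and loess gave 3 at 2-fold. All 9 were among the 17 and were higher, beside 8.54% of all genes higher in place of 13.2%. For DbSCL against vector, quantile normalization gave 0 at 2-fold under SF in place of 1 and 1 at 1.5-fold under Epo in place of 4. That 1 gene was lower, beside 1.66% of all genes lower in place of 2.78%. Shares of all genes at 2-fold are not given for the alternatives. Centring arrays on their medians gave 1 at 2-fold between SF and Epo in DbSCL cells, in place of 0. The cause was not tested. The count lower with DbSCL under both cytokines at any size was 19 to 30 over the 6 alternatives, while the share of all genes ran from 20.5% to 44.0%, and the 30 (66.7%) stood beside 44.0%. With quantile normalization 10 of 45 were higher under both in place of 2, beside 33.0% of all genes in place of 23.6%. No difference of 1.5-fold or more among the 13 of the 44 genes given with all 5 signals changed sign under the alternatives that gave it a value. The mean of probe sets gave none for NUP54, and XPOT was not recomputed. Smaller differences changed sign, as given for NUP43 and TNPO1.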
